A study of Homo sapiens with 16 samples.

Results

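The genes described here are long noncoding RNAs that carry small nucleolar RNAs (snoRNAs) in their introns. They were taken from the deposited expression table by name: every gene called SNHG (small nucleolar RNA host gene) followed by a number, plus GAS5, ZFAS1, DANCR and EPB41L4A-AS1. The table names 32 of them, and 31 have values, of 24878 genes with values in all. SNHG18 is the one without. Levels are given in CPM, normalized counts per 1000000 reads (1 M reads). Of the 31, 23 averaged at least 5 CPM over all libraries, 4 averaged 1 to 5 CPM (SNHG9, SNHG19, SNHG21 and SNHG31) and 4 averaged under 1 CPM (SNHG22, SNHG25, SNHG27 and SNHG28). GENCODE 29 classes 1 member, SNHG32, as protein-coding under its older name C6orf48.

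The study labelled RNA near an enzyme in living cells. HEK293T cells, a human embryonic kidney line of wild-type genotype per the labels, were transfected with a plasmid for BS2, an esterase, carrying a localization tag for the cytoplasm, the nucleus, the mitochondria or, through NIK3x, the nucleolus. All cells, non-transfected ones included, were given the probe AC-2 at 50 µM for 3 min and quenched with 1 mM PMSF, and transfected cells were labelled 24 h after transfection. Labelled RNA was coupled to biotin by a click reaction and enriched (pull-downs), and poly(A) RNA was sequenced. There were 3 non-transfected, 2 cytoplasmic, 3 nuclear, 2 mitochondrial and 2 nucleolar pull-downs. The inputs were 1 library each for non-transfected, cytoplasmic, nuclear and mitochondrial cells, and no nucleolar input was used here. Expression was transient and the promoter that drives BS2 is not given in the sources used here. Every transfected group differs from the non-transfected one in transfection and in BS2 at once, and these cannot be told apart. No label says that replicates came from separate cultures, although they are called biological. The p-values therefore rest on the spread among these libraries, which may be technical.

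A snoRNA guides the chemical modification of another RNA. Box C/D snoRNAs direct 2′-O-methylation and H/ACA snoRNAs direct pseudouridylation, mostly of ribosomal RNA in the nucleolus, while small Cajal body RNAs act on spliceosomal RNAs. In human cells most snoRNAs are cut out of introns, and the spliced exons of the host are left as a separate RNA. Many noncoding hosts are exported, engage ribosomes over short reading frames and are degraded by nonsense-mediated decay. Several hosts, GAS5 among them, are known as terminal oligopyrimidine genes, whose transcripts start with a C followed by a run of pyrimidines and whose decay is tied to translation. Poly(A) capture reads the spliced or unspliced host, not the mature snoRNA.

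RefSeq places 146 small RNAs within the spans of 29 of the 31 members: 120 box C/D, 22 H/ACA and 4 small Cajal body RNAs. SNHG14, the host of the imprinted snoRNA clusters on chromosome 15, holds 83, GAS5 holds 11 and SNHG1 holds 8. SNHG27 and SNHG28 hold none. Start sites are printed for members that were high or low with every construct or that separated nucleus from cytoplasm, because a pyrimidine-rich start is the element for which several hosts are known. SNHG15 and SNHG6 belong to that set but have no window in the table. Each sequence is the 60 bases around the RefSeq start (30 before it, 30 from the start base on, GRCh38.p14), read 5′ to 3′ on the transcribed strand. Capitals mark a C followed by at least 4 pyrimidines that begins within 10 bases of the start; a run across the start base is shown whole. The RefSeq start of GAS5 lies outside its span in GENCODE 29, which ends at 173868882.
SNHG12, chr1:28581844-28581903, minus strand: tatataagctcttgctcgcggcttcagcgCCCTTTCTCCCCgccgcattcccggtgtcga
SNHG17, chr20:38435299-38435358, minus strand: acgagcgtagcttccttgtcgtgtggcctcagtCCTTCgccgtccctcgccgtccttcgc
SNHG1, chr11:62855856-62855915, minus strand: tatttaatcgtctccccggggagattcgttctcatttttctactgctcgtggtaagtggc
GAS5, chr1:173869016-173869075, minus strand: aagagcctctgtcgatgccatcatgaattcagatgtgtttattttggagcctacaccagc
SNHG4, chr5:139274071-139274130, plus strand: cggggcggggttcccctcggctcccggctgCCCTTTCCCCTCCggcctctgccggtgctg
ZFAS1, chr20:49278612-49278671, plus strand: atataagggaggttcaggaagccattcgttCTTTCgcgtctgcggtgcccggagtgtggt
SNHG5, chr6:85678704-85678763, minus strand: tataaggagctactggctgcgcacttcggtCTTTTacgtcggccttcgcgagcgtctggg
SNHG16, chr17:76557734-76557793, plus strand: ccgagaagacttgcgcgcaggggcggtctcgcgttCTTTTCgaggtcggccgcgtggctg
SNHG29, chr17:16438957-16439016, plus strand: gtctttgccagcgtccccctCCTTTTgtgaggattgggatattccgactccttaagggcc
DANCR, chr4:52712364-52712423, plus strand: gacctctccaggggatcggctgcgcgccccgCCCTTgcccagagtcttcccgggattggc
SNHG32, chr6:31834886-31834945, plus strand: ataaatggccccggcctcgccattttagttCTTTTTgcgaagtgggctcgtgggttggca
EPB41L4A-AS1, chr5:112160496-112160555, plus strand: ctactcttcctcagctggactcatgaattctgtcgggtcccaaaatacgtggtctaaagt
SNHG30, chr17:35568084-35568143, plus strand: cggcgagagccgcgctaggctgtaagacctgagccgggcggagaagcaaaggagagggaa
SNHG21, chr15:82750534-82750593, plus strand: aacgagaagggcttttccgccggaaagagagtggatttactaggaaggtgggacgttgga
SNHG26, chr7:22854210-22854269, plus strand: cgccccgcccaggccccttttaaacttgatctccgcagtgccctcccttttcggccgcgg
SNHG10, chr14:95534843-95534902, minus strand: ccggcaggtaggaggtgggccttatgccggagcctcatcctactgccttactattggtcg
SNHG20, chr17:77088613-77088672, plus strand: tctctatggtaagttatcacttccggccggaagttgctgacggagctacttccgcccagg
SNHG3, chr1:28505913-28505972, plus strand: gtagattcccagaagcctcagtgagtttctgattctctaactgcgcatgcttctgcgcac
SNHG11, chr20:38446624-38446683, plus strand: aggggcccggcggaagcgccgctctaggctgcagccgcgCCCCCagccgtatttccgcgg

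Of the 27 members in the RefSeq promoter table, 15 (55.6%) hold the run, against 37.4% of 27305 genes. With a C required at the start base itself, followed by at least 4 pyrimidines, a narrower reading chosen after the windows were seen, 6 members hold it: SNHG12, SNHG4, SNHG32, SNHG5, SNHG19 and ZFAS1. That is 22.2% of members against 5.1% of genes. SNHG5 and ZFAS1 start with it, and so does SNHG12, although SNHG12 rose with every construct and SNHG5 fell. SNHG6, SNHG9, SNHG15 and SNHG25 are not in the promoter table.

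Estimated depth was 6.34 to 20.01 M reads per library, so 1 read stood for 0.0541 to 0.154 CPM. All 6 markers of HEK293T were present, and of 6 measured markers of other tissues 1 reached 1 CPM in any library. Exons of several members overlap those of another gene, and whether counting used strand is not given in the sources used here. Values of ZFAS1 (against ZNFX1), EPB41L4A-AS1 (EPB41L4A), SNHG4 (SIL1), SNHG7 (DIPK1B), SNHG10 (GLRX5), SNHG29 (LRRC75A), SNHG6 (MCMDC2) and SNHG16 (a locus without a gene name) may therefore hold reads of the opposite strand. SNHG3 shares exonic sequence with RCC1, SNHG14 with SNRPN and SNHG20 with SEC14L1 on the same strand, and SNHG21 and SNHG32 each with a locus without a gene name. These are bulk libraries, so fewer labelled cells and less labelled RNA per cell cannot be told apart.

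The mean summed level of the hosts was lowest with nucleolar BS2, and the genes that made up the sum differed between groups. The lower mitochondrial library, at 1748 CPM, was level with the higher nucleolar one at 1747 CPM, and the 2 groups overlapped as shares of all CPM. Summed levels were 2186 ± 109 CPM in the non-transfected pull-downs (SD, n = 3) and 1972 ± 5.09 CPM in the cytoplasmic ones (n = 2). They were 2129 ± 49.9 CPM with nuclear (n = 3), 1896 ± 210 CPM with mitochondrial (n = 2) and 1736 ± 16.03 CPM with nucleolar BS2 (n = 2). As a share of all CPM of a library, the sum was 0.198% to 0.208% in the non-transfected, 0.188% to 0.190% in the cytoplasmic and 0.234% to 0.256% in the nuclear pull-downs. It was 0.17% to 0.189% with mitochondrial and 0.169% to 0.175% with nucleolar BS2, so the nuclear libraries overlapped the non-transfected ones in summed CPM and were above them in share. No test was made on the sums. SNHG16 and SNHG29 gave 49.4% to 50.4% of that sum in non-transfected pull-downs, 41.4% to 42.8% in cytoplasmic and 37.1% to 38.2% in mitochondrial ones. Their share was 27.9% to 28.8% in nuclear and 27.8% to 30.3% in nucleolar pull-downs. Per kilobase of median annotated transcript, SNHG29 led in the non-transfected pull-downs with a mean of 841 CPM per kb, followed by SNHG16 with 307 and GAS5 with 285 CPM per kb. In the nuclear pull-downs GAS5 led with 494 CPM per kb, followed by SNHG29 with 436 and SNHG1 with 358 CPM per kb.

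**Figure D1:**
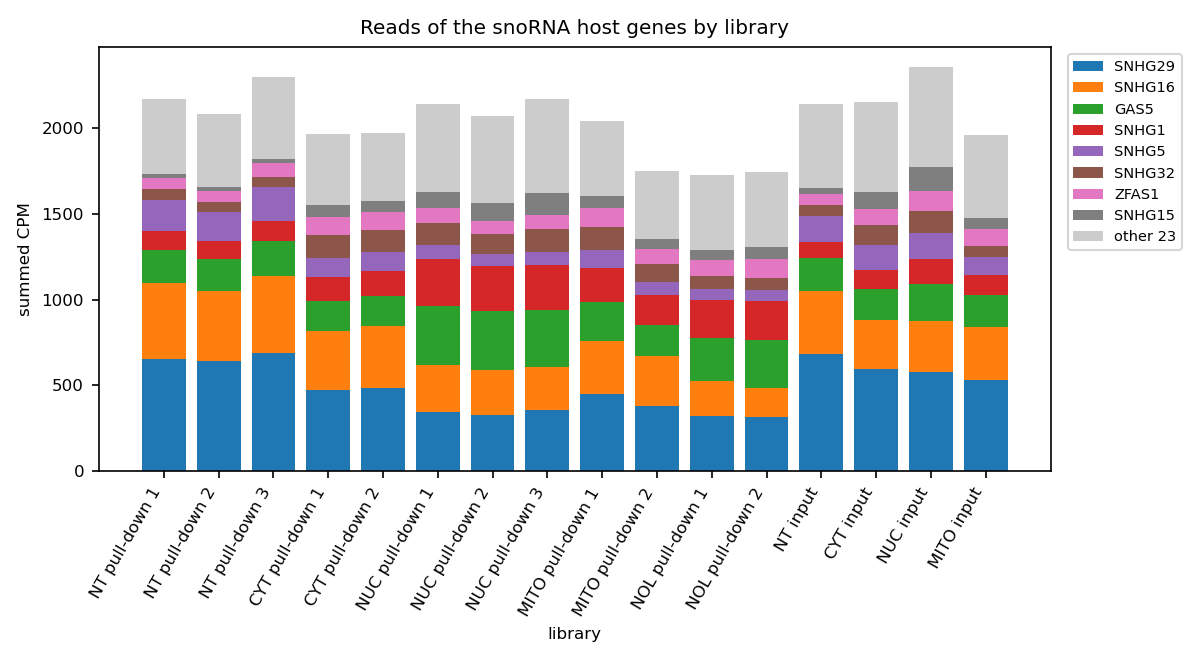
Summed CPM of the 31 snoRNA host genes in each of the 16 libraries (x axis), stacked by gene; NT is non-transfected, CYT cytoplasmic, NUC nuclear, MITO mitochondrial and NOL nucleolar BS2. The sums lie between 1724 and 2357 CPM, while the blocks of SNHG29 and SNHG16 are smaller and those of GAS5 and SNHG1 larger in the nuclear and nucleolar pull-downs than in the non-transfected ones.

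The 4 constructs were each compared with the same 3 non-transfected pull-downs. Such a difference holds transfection, labelling by BS2 and the level of a gene in the cells together. The comparisons share the non-transfected controls and so are not independent of each other. Fold changes are differences of mean log2(CPM + 1), which understates changes of low genes, and a change was called at a limma adjusted p under 0.05. Of the 31 members 27 had at least 1 CPM in at least 2 pull-downs and were tested among 16133 genes. With cytoplasmic BS2 8 members rose and 12 fell, while 28.9% of all genes tested rose and 22.4% fell. With nuclear BS2 12 rose and 8 fell, against 32.2% and 34.2% of genes. With mitochondrial BS2 7 rose and 11 fell, against 28.9% and 27% of genes. With nucleolar BS2 12 rose and 9 fell, against 30.1% and 35.6% of genes. Without cytoplasmic replicate 1 the members that fell with cytoplasmic BS2 numbered 7 in place of 12. Groups without overlap were common over all genes. In the same order of constructs, 38.7%, 32.4%, 36.4% and 35.7% of genes tested lay wholly above the non-transfected libraries. Wholly below them lay 33.7%, 34.7%, 34.9% and 42%. Members wholly above numbered 10, 11, 9 and 13 of 27, and those wholly below 15, 8, 10 and 10. The median member change was -0.31 with cytoplasmic, 0.03 with nuclear, -0.15 with mitochondrial and 0.03 with nucleolar BS2, beside 0.02, -0.03, 0.00 and -0.08 for all genes tested. When CPM were rescaled to a common total the median of all genes in the nuclear comparison moved from -0.03 to 0.22, and genes that rose made up 66.4% of calls in place of 48.5%.

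**Figure D2:**
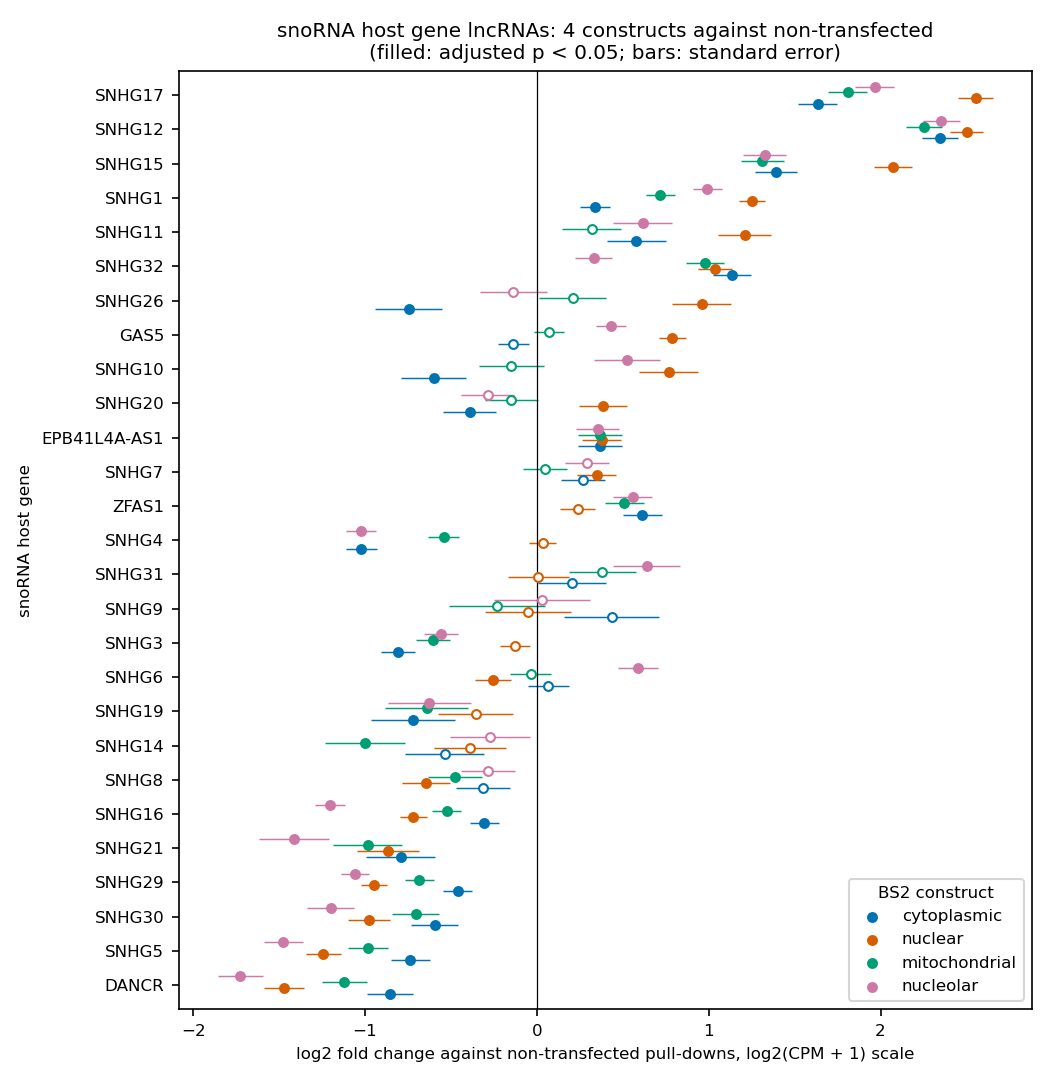
Log2 fold change of the 27 tested hosts (y axis) with each BS2 construct against the 3 non-transfected pull-downs (x axis, log2(CPM + 1) scale), with standard errors; filled points have a limma adjusted p under 0.05. SNHG12, SNHG17 and SNHG15 lie at the right for all 4 constructs and DANCR, SNHG5 and SNHG30 at the left, while SNHG26, GAS5, SNHG10 and SNHG4 spread out by construct.

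SNHG12, which hosts SNORD99 and 3 H/ACA snoRNAs, rose by a similar amount with each construct. It was at 6.18, 6.70 and 6.70 CPM in the non-transfected pull-downs. It reached 40.0 and 34.7 CPM with cytoplasmic, 41.3, 39.9 and 43.5 CPM with nuclear, 35.8 and 34.0 CPM with mitochondrial and 37.3 and 37.6 CPM with nucleolar BS2. Every transfected library was above every non-transfected one, and the 4 construct groups lay close together. The log2 changes were 2.35 ± 0.11 (SE), 2.50 ± 0.10, 2.25 ± 0.11 and 2.35 ± 0.11 in that order, with limma adjusted p from 1.54e-11 to 3.57e-10.

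SNHG17, the host of the SNORA71 family, rose in the same 4 comparisons but differed more between constructs. It was at 15.4, 19.4 and 16.8 CPM in the non-transfected pull-downs and at 97.0, 104 and 116 CPM with nuclear BS2. The cytoplasmic pull-downs held 59.0 and 52.0 CPM, the mitochondrial 66.1 and 59.1 CPM and the nucleolar 69.7 and 70.0 CPM. All transfected libraries stood above all non-transfected ones, and the nuclear ones above the other 3 construct groups. The change was 2.55 ± 0.10 with nuclear BS2 (limma adjusted p = 2.43e-11) and 1.64 to 1.97 with the others.

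SNHG15, the host of SNORA9 and known as a short-lived RNA, had 24.6, 24.3 and 28.0 CPM in the non-transfected pull-downs. With nuclear BS2 it had 96.5, 109 and 129 CPM, and the other transfected libraries ranged from 59.97 to 72.7 CPM. The groups did not overlap, and the nuclear libraries were again the highest. Its log2 change was 2.07 ± 0.11 with nuclear BS2 (limma adjusted p = 6.23e-10), 1.39 ± 0.12 with cytoplasmic, 1.31 ± 0.12 with mitochondrial and 1.32 ± 0.12 with nucleolar BS2.

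SNHG32, the host of SNORD48 and SNORD52, had 61.5, 55.4 and 62.4 CPM in the non-transfected pull-downs. It was at 136 and 128 CPM with cytoplasmic BS2, at 127, 112 and 133 CPM with nuclear BS2 and at 134 and 104 CPM with mitochondrial BS2. The nucleolar pull-downs, at 77.5 and 73.1 CPM, stood above the non-transfected ones and below the rest. The log2 change was 0.98 to 1.13 with the first 3 constructs and 0.33 ± 0.11 with the nucleolar one (limma adjusted p = 0.0156). The nucleolar call was lost without non-transfected replicate 2 (0.28) and without nucleolar replicate 1 (0.29).

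SNHG1, which hosts 8 box C/D snoRNAs, also rose with each construct, most with the nuclear one. It was at 111, 104 and 120.1 CPM in the non-transfected pull-downs and at 139 and 144 CPM in the cytoplasmic ones. It reached 272, 267 and 265 CPM with nuclear BS2, 198 and 172 CPM with mitochondrial BS2 and 218 and 229 CPM with nucleolar BS2. No construct group overlapped the non-transfected one. The log2 changes were 0.34 ± 0.08 with cytoplasmic (limma adjusted p = 0.00371), 1.25 ± 0.08 with nuclear (2.29e-09), 0.72 ± 0.08 with mitochondrial and 0.99 ± 0.08 with nucleolar BS2. EPB41L4A-AS1, the host of SNORA13, was called higher by 0.35 to 0.38 with each construct, from 28.2 to 30.4 CPM in non-transfected to 33.1 to 43.5 CPM in transfected pull-downs. Its calls were lost without non-transfected replicate 3 in the cytoplasmic (0.35), mitochondrial (0.34) and nucleolar (0.33) comparisons. They were also lost without cytoplasmic replicate 1 (0.30) or 2 (0.44), mitochondrial replicate 1 (0.18) and nucleolar replicate 1 (0.37) or 2 (0.33). Under quantile normalization the cytoplasmic call was lost as well (0.255).

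ZFAS1, the host of the SNORD12 family, had 64.1, 66.0 and 76.8 CPM in the non-transfected pull-downs. It rose with cytoplasmic BS2 to 105 and 107 CPM, with mitochondrial BS2 to 109 and 88.3 CPM and with nucleolar BS2 to 93.3 and 111 CPM. These 3 groups did not overlap the non-transfected one. Its log2 change was 0.61 ± 0.11, 0.51 ± 0.11 and 0.56 ± 0.11 (limma adjusted p 0.000387 to 0.00149). The nuclear pull-downs, at 87.6, 75.9 and 80.6 CPM, overlapped the non-transfected ones, and the change there was 0.24 ± 0.10 (limma adjusted p = 0.0517). It passed under 11 of 23 alternatives, which gave 0.18 to 0.51. SNHG11, another SNORA71-family host, was at 5.57 to 6.31 CPM in non-transfected and 13.3, 13.996 and 18.5 CPM in nuclear pull-downs, a change of 1.21 ± 0.15 (limma adjusted p = 5.34e-06). It was called higher with cytoplasmic (0.58) and nucleolar BS2 (0.62), but not without cytoplasmic replicate 1 (0.49) and nucleolar replicate 1 (0.50).

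**Figure D3:**
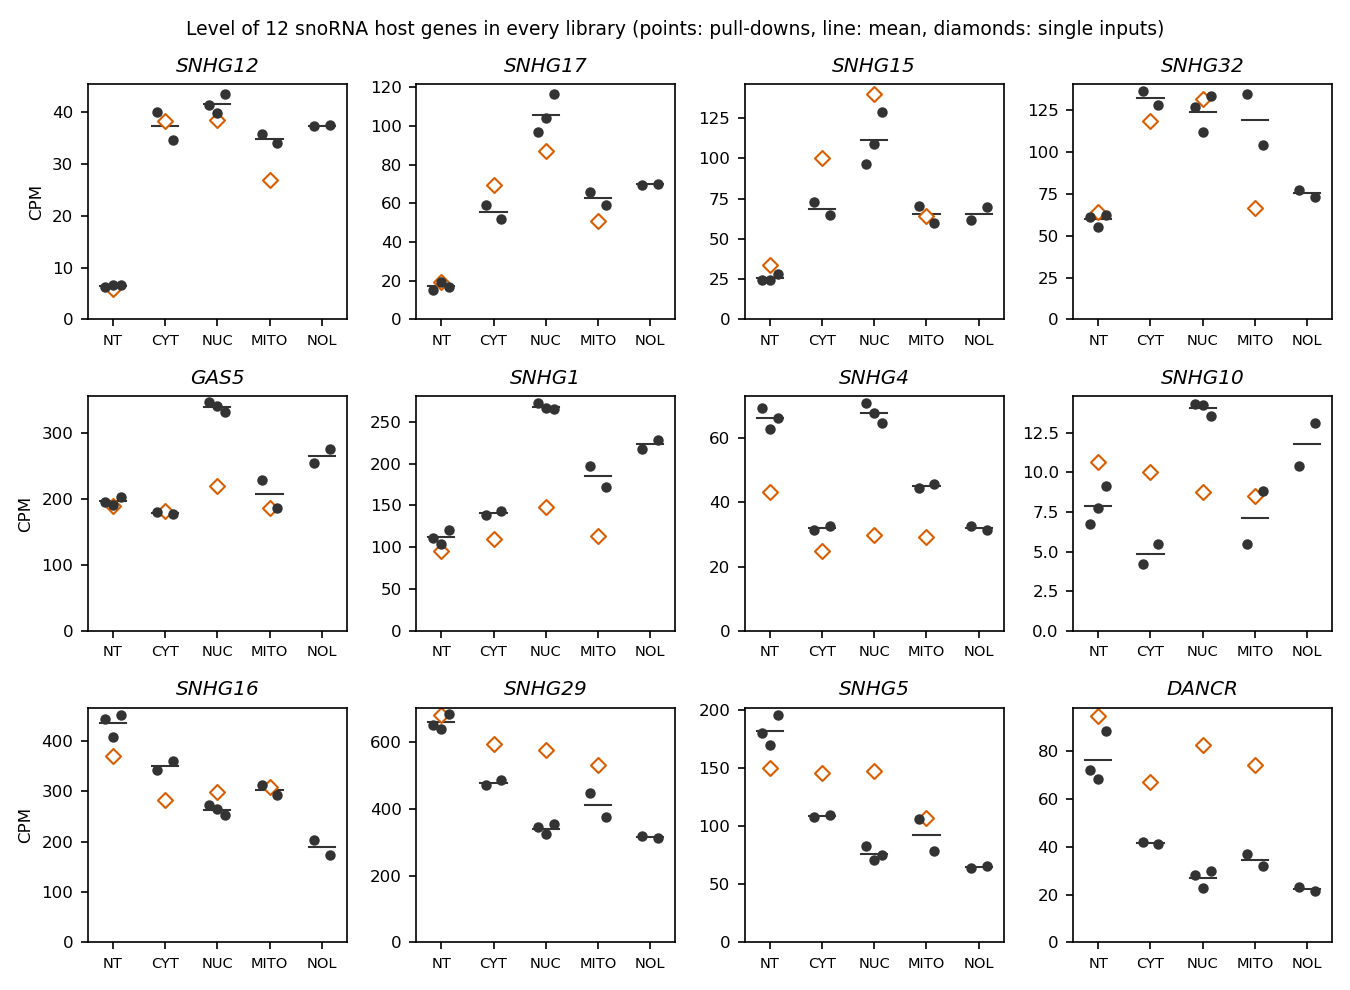
Level in CPM (y axis, from 0) of 12 hosts in every library, with points for pull-downs, a line for the group mean and an open diamond for the single input of a group; NT is non-transfected, CYT cytoplasmic, NUC nuclear, MITO mitochondrial and NOL nucleolar BS2, which has no input here. The SNHG12 input is at 5.93 CPM without transfection and at 27.0 to 38.6 CPM with it, and DANCR is at 67.1 to 94.6 CPM in inputs but at 21.4 to 42.0 CPM in the transfected pull-downs.

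Other members were lower with every construct. DANCR, the host of SNORA26 and known for holding back differentiation of epidermal progenitors, had 72.2, 68.4 and 88.2 CPM in the non-transfected pull-downs. It had 42.0 and 41.0 CPM with cytoplasmic, 28.4, 22.6 and 29.7 CPM with nuclear, 37.0 and 31.9 CPM with mitochondrial and 23.0 and 21.4 CPM with nucleolar BS2. Every transfected library was below every non-transfected one. The log2 change ran from -0.85 ± 0.13 with cytoplasmic to -1.73 ± 0.13 with nucleolar BS2 (limma adjusted p 7.94e-05 and 2.64e-08).

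SNHG5, the host of SNORD50A and SNORD50B, had 179.9, 170.0 and 195 CPM in the non-transfected pull-downs. It had 107 and 109.6 CPM with cytoplasmic, 83.0, 71.0 and 75.0 CPM with nuclear, 106 and 78.5 CPM with mitochondrial and 63.8 and 65.5 CPM with nucleolar BS2. Again no transfected library reached the non-transfected range. The log2 changes were -0.74, -1.24, -0.98 and -1.48 (SE 0.10 to 0.11, limma adjusted p 2.82e-08 to 7.84e-05).

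SNHG29, the host of SNORD49A, SNORD49B and SNORD65, was at 653, 639 and 685 CPM in the non-transfected pull-downs and at 472 and 485 CPM in the cytoplasmic ones. It was at 345, 325 and 354 CPM with nuclear, 447 and 376 CPM with mitochondrial and 319.8 and 312 CPM with nucleolar BS2. The log2 change was -0.46 with cytoplasmic BS2 and -1.06 with nucleolar BS2 (limma adjusted p 0.000328 and 3.7e-08). SNHG16, the host of the SNORD1 family, had 442, 408 and 452 CPM in non-transfected pull-downs and 203 and 173 CPM in nucleolar ones, the lowest of the construct groups. Its log2 change was -0.31 ± 0.09 with cytoplasmic BS2 (limma adjusted p = 0.00788), where the call was lost without cytoplasmic replicate 1 (-0.27). It was -0.72 ± 0.08 with nuclear, -0.52 ± 0.09 with mitochondrial and -1.20 ± 0.09 with nucleolar BS2.

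SNHG30, the host of SNORD7, fell with each construct as well, from 21.0 to 25.9 CPM in non-transfected pull-downs to 8.70 and 9.99 CPM with nucleolar BS2 (-1.20 ± 0.14, limma adjusted p = 1.92e-06). SNHG21, the host of SCARNA15, fell from 6.67 to 8.65 CPM to 2.68 and 1.68 CPM in the same comparison (-1.41 ± 0.20, limma adjusted p = 1.88e-05). Its fall with cytoplasmic BS2 (-0.79) was not called without cytoplasmic replicate 2 (-0.68). SNHG19, the host of SNORD60, was called lower with cytoplasmic (-0.72), mitochondrial (-0.64) and nucleolar BS2 (-0.62), but at 0.769 to 2.35 CPM these values rest on few reads. Its calls were lost without non-transfected replicate 1 or 3 in each of these comparisons (-0.58 to -0.69), without either cytoplasmic library (-0.64 and -0.80), mitochondrial replicate 2 (-0.45) or either nucleolar library (-0.49 and -0.76). The nucleolar call was also lost under the common total (-0.57) and median-of-ratios scaling (-0.55), and with no filter on low values both it (-0.62) and the mitochondrial one (-0.64) were.

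SNHG8, the host of SNORA24, had 33.5, 39.8 and 49.2 CPM without BS2 and 27.4, 23.0 and 26.2 CPM with nuclear BS2. The cytoplasmic pull-downs were at 31.3 and 33.1 CPM, the mitochondrial at 33.9 and 24.2 CPM and the nucleolar at 31.1 and 34.9 CPM. It fell with nuclear BS2, where the groups did not overlap (-0.64 ± 0.14, limma adjusted p = 0.000907). It was also called lower with mitochondrial BS2 (-0.48), although the groups overlapped, and that call was lost without non-transfected replicate 3 (-0.34) or mitochondrial replicate 2 (-0.24).

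A further set was high or low depending on where BS2 was. GAS5, known to accumulate when growth or translation stops, had 196, 190.1 and 203 CPM in the non-transfected pull-downs. With nuclear BS2 it had 347, 341 and 331 CPM, above every other group. The nucleolar pull-downs held 255 and 276 CPM, also above the non-transfected range. The cytoplasmic ones held 179.7 and 177 CPM and the mitochondrial ones 228 and 186 CPM. The change was 0.79 ± 0.08 with nuclear BS2 (limma adjusted p = 4.67e-07) and 0.43 ± 0.09 with nucleolar BS2 (0.000495). It was -0.14 ± 0.09 with cytoplasmic and 0.07 ± 0.09 with mitochondrial BS2, neither past the threshold.

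SNHG4, the host of SNORA74A, had 69.5, 63.0 and 66.2 CPM in the non-transfected and 70.9, 67.9 and 64.6 CPM in the nuclear pull-downs, which overlapped. It was at 31.6 and 32.6 CPM with cytoplasmic, 44.4 and 45.8 CPM with mitochondrial and 32.8 and 31.4 CPM with nucleolar BS2, all below the others. The log2 change was -1.02 ± 0.09 with cytoplasmic, -0.54 ± 0.09 with mitochondrial and -1.02 ± 0.09 with nucleolar BS2 (limma adjusted p 1.01e-07 to 0.000106), and 0.03 ± 0.08 with nuclear BS2. SNHG3, the host of SNORA73A and SNORA73B, was also low in the cytoplasmic and close to non-transfected in the nuclear pull-downs. It had 64.3 to 70.8 CPM in non-transfected, 57.5 to 68.4 CPM in nuclear and 38.1 and 38.8 CPM in cytoplasmic pull-downs. It was lower with cytoplasmic (-0.81 ± 0.10), mitochondrial (-0.61 ± 0.10) and nucleolar BS2 (-0.56 ± 0.10), and with nuclear BS2 the groups overlapped (-0.13 ± 0.09, not past the threshold).

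SNHG26, the host of SNORD93, had 5.48, 6.31 and 5.88 CPM in the non-transfected and 11.2, 15.1 and 11.1 CPM in the nuclear pull-downs, against 2.77 and 3.47 CPM in the cytoplasmic ones. It rose with nuclear BS2 (0.96 ± 0.17, limma adjusted p = 0.000183) and fell with cytoplasmic BS2 (-0.75 ± 0.19, 0.00497), a fall not called without cytoplasmic replicate 1 (-0.62). SNHG10, the host of SCARNA13, went from 6.74 to 9.17 CPM in non-transfected to 14.3, 14.2 and 13.6 CPM in nuclear pull-downs (0.77 ± 0.17, limma adjusted p = 0.000992). In cytoplasmic pull-downs it was at 4.24 and 5.48 CPM (-0.60 ± 0.19), a call lost without non-transfected replicate 3 (-0.50) or cytoplasmic replicate 1 (-0.45). Its nucleolar rise (0.52) was lost without non-transfected replicate 1 (0.43) or nucleolar replicate 2 (0.37). SNHG20, the host of SCARNA16, had 12.8, 12.2 and 14.8 CPM in the non-transfected, 14.8, 19.6 and 18.7 CPM in the nuclear and 10.4 and 9.35 CPM in the cytoplasmic pull-downs. The cytoplasmic libraries lay below both other groups, while the lowest nuclear one was level with the highest non-transfected one. It was called higher with nuclear BS2 (0.38) and lower with cytoplasmic BS2 (-0.39). The nuclear call was lost without non-transfected replicate 1 (0.36) or 2 (0.33) or nuclear replicate 2 (0.31) or 3 (0.34). The cytoplasmic one was lost without 7 of the 12 libraries, where it ranged from -0.32 to -0.46, under the common total (-0.36) and with no filter (-0.39).

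SNHG6, the host of SNORD87, was the member whose nucleolar level stood out. It had 40.8, 35.1 and 41.9 CPM in the non-transfected, 32.3, 31.2 and 34.6 CPM in the nuclear and 55.4 and 63.7 CPM in the nucleolar pull-downs. It rose with nucleolar BS2 (0.59 ± 0.12, limma adjusted p = 0.000449). Its call as lower with nuclear BS2 (-0.25, limma adjusted p = 0.0462) was lost when CPM were rescaled to a common total, which turned the sign (0.02). It was also lost under median-of-ratios scaling (-0.185), with no filter or no trend (-0.25), and without 8 of the 12 libraries, at -0.20 to -0.25. SNHG31, the host of SNORA70I, was called higher with nucleolar BS2 (0.64, from 1.03 to 1.58 CPM to 2.87 and 2.25 CPM), a call lost without nucleolar replicate 1 (0.51). SNHG7, the host of SNORA17A and SNORA17B, had 31.1, 26.5 and 32.0 CPM in the non-transfected and 34.8, 35.1 and 45.7 CPM in the nuclear pull-downs. It was called higher with nuclear BS2 (0.35), but not without non-transfected replicate 2 (0.27) or nuclear replicate 3 (0.22). SNHG14 had 2.54 and 2.60 CPM with mitochondrial BS2 and 4.95 to 8.50 CPM without BS2 (-0.999 ± 0.23, limma adjusted p = 0.00195). SNHG9, the host of SNORA78, passed no test against non-transfected pull-downs at 0.577 to 2.26 CPM.

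Nuclear against cytoplasmic BS2 compares the hosts between 2 groups that were both transfected. Of the 27 members 10 were higher in the nuclear pull-downs and 7 lower, while 10.2% of all genes tested were higher and 23.2% lower. The higher ones were SNHG26 (1.70 ± 0.19, limma adjusted p = 3.85e-05), SNHG10 (1.37 ± 0.19), SNHG4 (1.05 ± 0.09), GAS5 (0.92 ± 0.09), SNHG17 (0.92 ± 0.11) and SNHG1 (0.92 ± 0.08). SNHG20, SNHG3, SNHG15 and SNHG11 were higher by 0.77, 0.68, 0.68 and 0.63. None of these 10 had overlapping groups. Of all genes tested, 19.6% lay wholly above the cytoplasmic libraries and 37.8% wholly below. All 10 were called under every scaling tried. Without cytoplasmic replicate 2 the SNHG11 call was lost (0.54). The single nuclear input was also above the cytoplasmic one for 8 of these 10, with SNHG11 at 20.3 against 13.3 CPM, SNHG15 at 140.2 against 100.1, SNHG1 at 148 against 110.2 and GAS5 at 219 against 181 CPM. It was below it for SNHG26 (3.54 against 4.63 CPM) and SNHG10 (8.76 against 10.02 CPM). Among the 7 members lower in the nuclear pull-downs, the nuclear input was above the cytoplasmic one for 5 and below it for 2. The part of the inputs in these differences was not tested here.

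The lower ones were DANCR (-0.62 ± 0.13, limma adjusted p = 0.00293), SNHG5 (-0.50), SNHG29 (-0.49), SNHG16 (-0.41), SNHG30 (-0.38), ZFAS1 (-0.38) and SNHG6 (-0.32). Their number depended on scaling: 2 with CPM rescaled to a common total, 4 with median-of-ratios scaling and 2 with quantile normalization. The split of all calls moved too, from 30.4% higher to 76.4%, 46.7% and 51.5%, and the median of all genes from -0.12 to 0.10 under the common total. DANCR was called lower under each of these scalings. Lower calls also fell to 4 without cytoplasmic replicate 1, without cytoplasmic replicate 2 or without nuclear replicate 2. SNHG12 was at 34.7 to 43.5 CPM in these 5 libraries and differed by 0.15 with a 95% interval of -0.07 to 0.38. SNHG32 differed by -0.10 with an interval of -0.33 to 0.14.

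Nucleolar against nuclear BS2 also compares 2 transfected groups, but no nucleolar input was used here. A difference in labelling and a difference in total RNA between these groups therefore cannot be told apart. Only 3 members were higher in the nucleolar pull-downs and 12 lower, against 16.6% and 17.9% of all genes tested. SNHG6 was the clearest of the higher ones (0.84 ± 0.12, limma adjusted p = 8.64e-05). SNHG31 (0.63) lost its call without nuclear replicate 1 (0.55) or nucleolar replicate 1 (0.50). ZFAS1 (0.32) lost it under the common total (0.12), under quantile normalization (0.24), and with no filter or no trend (0.32). Its call was also lost without nucleolar replicate 2 (0.20), nuclear replicate 2 (0.27) or nuclear replicate 3 or either cytoplasmic library (0.32). Among the lower ones SNHG26 (-1.09 ± 0.19) and SNHG4 (-1.06 ± 0.09) led, followed by SNHG15 (-0.75), SNHG32 (-0.71), SNHG20 (-0.67), SNHG11 (-0.59) and SNHG17 (-0.59). SNHG21 (-0.54), SNHG16 (-0.49), SNHG3 (-0.43), GAS5 (-0.36) and SNHG1 (-0.26) completed them. Calls lost without nucleolar replicate 1 were GAS5 (-0.30) and SNHG1 (-0.23). Those lost without nucleolar replicate 2 were SNHG20 (-0.49), SNHG11 (-0.48), SNHG21 (-0.31) and SNHG1 (-0.30). SNHG1 was also lost without nuclear replicate 2 (-0.27) and with no trend (-0.26), and SNHG21 without 9 of the 12 libraries in all. The SNHG21 call was lost too under median-of-ratios scaling and quantile normalization (-0.52). The same held with no filter, a filter of 5 CPM or all 16 libraries in the fit (-0.54), and under either replicate block (-0.56 and -0.58). Rescaling to a common total took the share of higher calls over all genes from 48.1% to 23.4% and the median of all genes from -0.05 to -0.22.

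**Figure D4:**
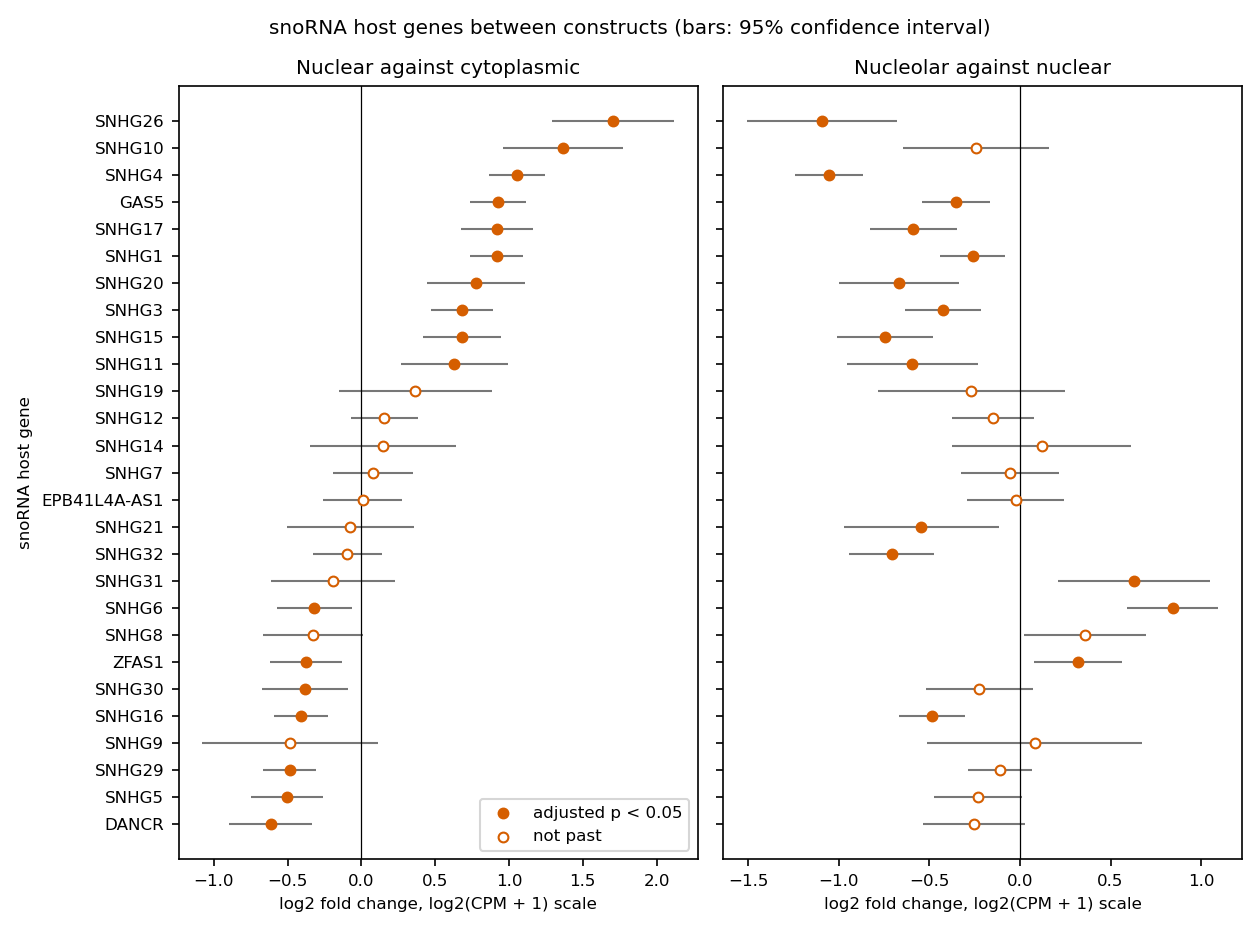
Log2 differences (x axis, log2(CPM + 1) scale) of the 27 tested hosts between nuclear and cytoplasmic pull-downs (left) and between nucleolar and nuclear pull-downs (right), with 95% confidence intervals; filled points have a limma adjusted p under 0.05. SNHG26 and SNHG4 are at 1.70 and 1.05 on the left and at -1.09 and -1.06 on the right, and SNHG6 is highest on the right at 0.84.

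The tested hosts were also counted by the kind of small RNA they carry, a grouping made after the values were seen. No difference between the kinds was tested. Of 14 tested hosts of H/ACA or Cajal body RNAs alone, 7 were higher with nuclear than with cytoplasmic BS2. In that comparison 1 of the 14, DANCR, was lower, and the median difference was 0.35. Of 11 hosts of box C/D snoRNAs alone, 2 (SNHG1 and SNHG26) were higher and 6 lower in the same comparison, with a median of -0.32. Over all genes 10.2% were higher and 23.2% lower. All 7 higher calls were made under each of the 3 other scalings. Of the 6 lower calls, 1 (SNHG29) was left under the common total, 3 under median-of-ratios scaling and 1 (SNHG5) under quantile normalization. GAS5 and SNHG12 host both kinds, and GAS5 was higher. In the nucleolar and nuclear comparison the H/ACA and Cajal body hosts had 1 higher and 7 lower call with a median of -0.34, and the box C/D hosts 2 and 4 with a median of -0.23, beside 16.6% and 17.9% of genes.

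Inputs show total poly(A) RNA before the pull-down, with 1 library per group and no replicate, so the inputs were not tested against each other. SNHG12 had 5.93 CPM without transfection, against 38.4, 38.6 and 27.0 CPM in the cytoplasmic, nuclear and mitochondrial inputs, 4.55 to 6.51 times as high. SNHG17 was at 19.4 CPM against 69.7, 87.0 and 51.0 CPM, and SNHG15 at 33.9 CPM against 100.1, 140.2 and 64.1 CPM. The rise of these 3 with BS2 was thus present in the inputs of the transfected cells as well as in their pull-downs. At least 2-fold higher on the log2(CPM + 1) scale were 3 members in the cytoplasmic, 5 in the nuclear and 2 in the mitochondrial input, beside 3.59%, 4.27% and 3.94% of 16693 genes. Beyond these 3, the nuclear input was higher for SNHG11 (7.48 to 20.3 CPM) and SNHG32 (64.2 to 132 CPM). At least 2-fold lower were 1, 0 and 2 members, beside 1.69%, 2.19% and 2.4% of genes. Other members that rose are given on that log2 scale, in the order cytoplasmic, nuclear and mitochondrial. SNHG32 differed by 0.88, 1.03 and 0.05 in the inputs, beside 1.13, 1.04 and 0.98 in the pull-downs. SNHG1 differed by 0.21, 0.63 and 0.26, beside 0.34, 1.25 and 0.72. ZFAS1 differed by 0.50, 0.80 and 0.53, beside 0.61, 0.24 and 0.51. EPB41L4A-AS1 differed by 0.66, 0.70 and 0.16, beside 0.37, 0.38 and 0.37.

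Single inputs of members that fell, and of GAS5, are given here as values. DANCR had 94.6 CPM in non-transfected cells, against 67.1, 82.4 and 74.3 CPM in the inputs of transfected ones. SNHG5 was at 149.8 CPM against 145, 147 and 107 CPM, and SNHG29 at 682 CPM against 596, 575 and 533 CPM. SNHG16 was at 370 CPM against 283, 297 and 308 CPM, and SNHG4 at 43.3 CPM against 24.8, 29.8 and 29.3 CPM. SNHG30 was at 17.3 CPM against 16.6, 16.9 and 14.8 CPM, and SNHG8 at 43.9 CPM against 54.9, 52.9 and 50.2 CPM. GAS5, called lower with no construct, was at 189 CPM against 181, 219 and 187 CPM. SNHG14 had 39.0 CPM in non-transfected cells, against 7.98, 21.97 and 7.41 CPM in the others. SNHG14 and SNHG19 differed by -2.25 and -1.56 (log2) in the mitochondrial input, beside -0.999 and -0.64 in the pull-downs. SNHG21 with nuclear BS2 differed by -0.84 in the input and -0.87 in the pull-downs, and SNHG3 with cytoplasmic BS2 by -0.77 and -0.81. SNHG16 differed by -0.39 and -0.31 with cytoplasmic BS2, and by -0.31 and -0.72 with nuclear BS2. SNHG4 differed by -0.78 and -1.02 with cytoplasmic BS2, and by -0.55 and -0.54 with mitochondrial BS2.

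**Figure D5:**
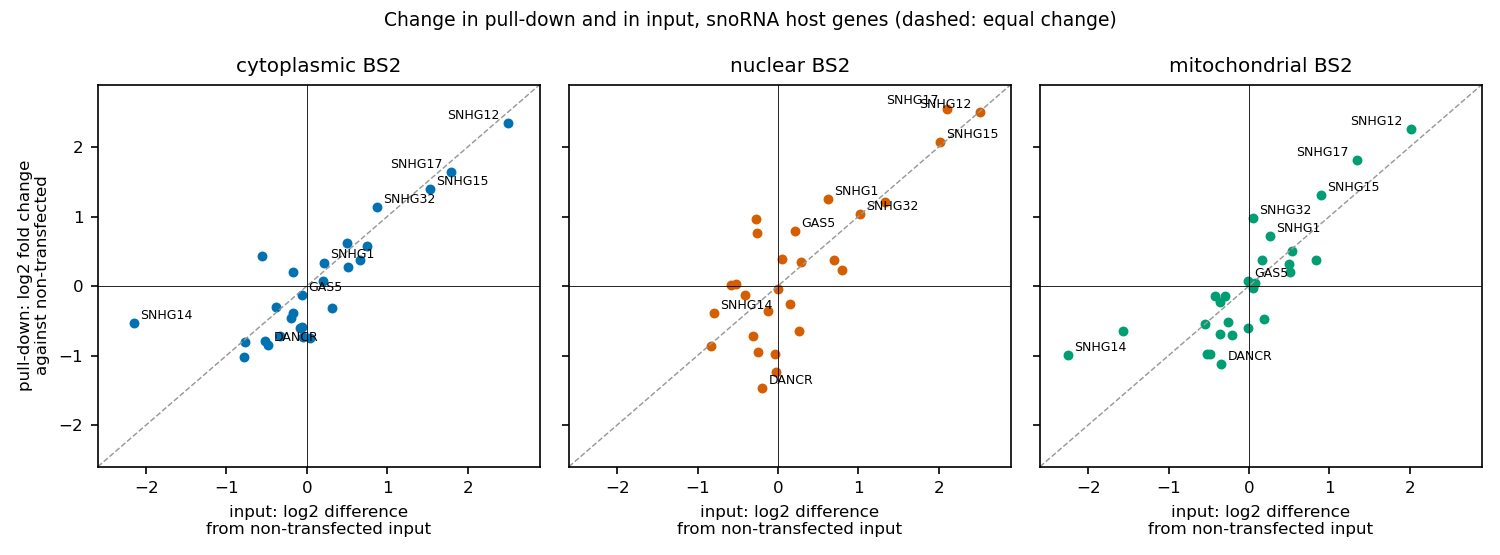
Each of the 27 tested hosts by its log2 difference from the non-transfected input (x axis, 1 library each) and its log2 fold change against the non-transfected pull-downs (y axis), both on the log2(CPM + 1) scale; the dashed line marks equal change. SNHG12, SNHG17 and SNHG15 are high on both axes, DANCR with nuclear BS2 is at -0.20 on the x axis and -1.47 on the y axis, and SNHG14 is at -2.15 and -2.25 on the x axis with cytoplasmic and mitochondrial BS2.

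Pull-downs were compared with inputs over the 4 groups that have both, with the group as covariate. Only 3 members were higher in the pull-downs and 11 lower, where 36.5% of 16510 genes were higher and 29.3% lower. SNHG4 (0.69 ± 0.10, limma adjusted p = 1.6e-05), SNHG1 (0.53 ± 0.09) and SNHG31 (0.54 ± 0.17) were the higher ones. The lower ones were led by SNHG14 (-1.70 ± 0.22, limma adjusted p = 5.89e-06) and DANCR (-0.92 ± 0.15), followed by SNHG9 (-0.83), SNHG19 (-0.68), SNHG8 (-0.66) and SNHG7 (-0.57). SNHG11, SNHG29, SNHG5, SNHG15 and SNHG6 were lower by smaller amounts, -0.31 to -0.40, and the SNHG5 call was lost without any of 7 libraries (-0.29 to -0.33). The SNHG5 call was also lost with no filter or no trend (-0.33). SNHG12 and SNHG17 differed by 0.13 (95% interval -0.05 to 0.31) and 0.02 (-0.20 to 0.24). The median member difference was -0.13, beside 0.08 for all genes.

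The last question was whether the change with a construct was larger or smaller in the pull-downs than in the inputs. It was tested as the difference of the pull-down to input differences between a construct and non-transfected cells, with each single input assumed to vary like the pull-downs. That spread was not measured, so a construct's effect and a deviation of its 1 input library cannot be told apart in the values that follow. With nuclear BS2 4 members were higher and 5 lower, against 7.63% and 8.94% of 16693 genes. SNHG26 (1.23 ± 0.35, limma adjusted p = 0.03), SNHG1 (0.63 ± 0.15), GAS5 (0.58 ± 0.16) and SNHG4 (0.56 ± 0.16) were higher. DANCR (-1.27 ± 0.23, limma adjusted p = 0.0031), SNHG5 (-1.22 ± 0.20), SNHG30 (-0.94 ± 0.24), SNHG8 (-0.91 ± 0.28) and SNHG29 (-0.70 ± 0.15) were lower. SNHG12, SNHG15 and SNHG32 differed by -0.01, 0.06 and 0.01, with 95% intervals of -0.42 to 0.39, -0.42 to 0.53 and -0.41 to 0.43. Without nuclear replicate 2 the calls of SNHG26 (1.09), SNHG4 (0.56) and SNHG8 (-0.84) were lost. SNHG26 was also lost without non-transfected replicate 1 (1.19), and SNHG8 without non-transfected replicate 2 (-0.92) or 3 (-0.77) or any cytoplasmic or nucleolar library (-0.91). With no filter SNHG26 (1.23) and SNHG8 (-0.91) were lost, and with no trend GAS5 (0.58) and SNHG8 (-0.91). SNHG8 was lost under the common total too (-0.72), and SNHG29 under quantile normalization (-0.39).

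With cytoplasmic BS2 1 member, SNHG14, was higher (1.62 ± 0.42, limma adjusted p = 0.0321) and none lower, against 5.74% and 2.77% of genes. That value rests on the single non-transfected input at 39.0 CPM, and the call was lost without non-transfected replicate 3 (1.49) or cytoplasmic replicate 2 (1.43). With mitochondrial BS2 SNHG32 was higher (0.93 ± 0.20, limma adjusted p = 0.0148) and none was lower, against 6.16% and 3.4% of genes. Its mitochondrial input was at 66.4 CPM, near the 64.2 CPM of the non-transfected input, while its mitochondrial pull-downs were at 134 and 104 CPM. Leaving out single libraries gave 0 to 1 lower calls with cytoplasmic BS2 (1 without nuclear replicate 1 or 3 or mitochondrial replicate 1 or 2). With mitochondrial BS2 it gave 1 to 2 higher calls (2 without non-transfected replicate 1 or nuclear replicate 1 or 3). Lower calls there were 2 without nuclear replicate 1 or 3, and 1 without non-transfected replicate 2, nuclear replicate 2 or mitochondrial replicate 1.

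Other genes of the pathway were counted in the same comparisons. Of 36 protein-coding snoRNA hosts, many of them ribosomal protein genes with terminal oligopyrimidine starts, 3 rose and 22 fell with cytoplasmic, 5 and 28 with nuclear, 4 and 23 with mitochondrial and 8 and 25 with nucleolar BS2. The shares over all genes were 28.9% and 22.4%, 32.2% and 34.2%, 28.9% and 27%, and 30.1% and 35.6% in that order, and they hold for the lists that follow. Median changes of the coding hosts were -0.59, -1.14, -0.88 and -0.76, beside 0.02, -0.03, 0.00 and -0.08 for all genes. With nuclear BS2 the ribosomal protein gene RPL23A fell (-2.19, limma adjusted p = 7.61e-11), and TNPO2, the gene of an import receptor, rose (1.30). Between nuclear and cytoplasmic BS2 1 coding host, EIF4A2 (0.48), was higher and 28 were lower, against 10.2% and 23.2% of genes, with a median of -0.53 beside 0.08 for the noncoding hosts and -0.12 for all genes. Between nucleolar and nuclear BS2 18 were higher and 4 lower, against 16.6% and 17.9% of genes, with a median of 0.28 beside -0.26 for the noncoding hosts. NCL, the gene of nucleolin, was among the higher ones (0.99).

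The 18 genes of snoRNP proteins and their assembly factors were split. With nucleolar BS2 7 rose and 5 fell, led by NOP58, a core box C/D protein (1.68, limma adjusted p = 6.1e-10), and by NHP2, a core H/ACA protein (-1.52). With nuclear BS2 5 rose and 7 fell, with NUFIP1, an assembly factor, at 0.75 and NHP2 at -1.49. Of 14 genes of nonsense-mediated decay, 10 rose with each construct, and 2, 3, 1 and 1 fell with cytoplasmic, nuclear, mitochondrial and nucleolar BS2. UPF3B was highest with nucleolar BS2 (1.86) and EIF4A3, of the exon junction complex, lowest (-0.87). Of 7 lncRNAs of known location, 0 rose and 4 fell with cytoplasmic, 3 and 4 with nuclear, 3 and 3 with mitochondrial and 3 and 4 with nucleolar BS2. Between nuclear and cytoplasmic BS2 4 were higher and 1 lower, against 10.2% and 23.2% of genes. NEAT1 and MALAT1, which stay in the nucleus, were higher by 2.05 and 1.75, and NORAD, a mainly cytoplasmic RNA, was lower (-0.25).

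The 4 members left out of the tests were at the limit of detection. SNHG22, SNHG25, SNHG27 and SNHG28 had at most 1.08 CPM in any library. The level of 3 reads was 0.162 to 0.461 CPM, so these values rest on few reads. Differences between groups in these members were not assessed.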

How the data were processed

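The authors deposited log2 values of filtered, TMM-normalized CPM per gene, per the labels. The submitters' processing notes name GRCh38, limma, Salmon 1.4.0 and STAR 2.7.9a, without roles. Of 39823 entries 14906 carry no value. In the rest, 39 names are repeated with the same values and were kept once. Every library has the same lowest log2 value, -2.5907, so 0.166 was subtracted from 2 raised to the deposited value to obtain CPM. The planned test had assumed plain CPM. Whole reads were recovered for 69.1% to 84.2% of values (tolerance 0.01), too few for a count test.

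log2(CPM + 1) was fitted with limma 3.58.1 in R 4.3.3 (trend, Benjamini-Hochberg adjusted p under 0.05) for genes that reached 1 CPM in 2 or more libraries: 12 pull-downs for 6 comparisons, with inputs added for 4 more. The fit was tested on simulated data. Members, lists, comparisons and thresholds were chosen with earlier results of these data known. Any member could be named. Per-library values were to be given for members averaging at least 5 CPM with a call between pull-downs, some of which have only ranges in part of the groups, and from the other lists up to 2 largest rises and falls per comparison. The 4 lists were written from general knowledge. Values of 1 listed gene are not reported here. Gene overlaps come from GENCODE 29 (96.8% of genes matched, all 31 members), and starts and hosted small RNAs from RefSeq on GRCh38.p14.

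Alternatives were 3 other scalings, pseudocount 0.5, the deposited log2 values, no filter or 5 CPM, no trend, all 16 libraries in the fit, replicate blocks, and each pull-down left out in turn, where a lone library was assumed to vary like other groups. Depth was estimated from the smallest step between values. Limits from it cover counting error alone.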

Additional observations from a re-analysis of the deposited data

Results flagged for a closer look

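For 11 members the change with a construct differed between pull-downs and inputs by a test of that difference, with limma adjusted over 16693 genes and 1 input library per group. With nuclear BS2 the pull-down change exceeded the input change for SNHG26 (1.23, log2 scale), SNHG1 (0.63), GAS5 (0.58) and SNHG4 (0.56). It lay below the input change for DANCR (-1.27), SNHG5 (-1.22), SNHG30 (-0.94), SNHG8 (-0.91) and SNHG29 (-0.7). With cytoplasmic BS2 it exceeded the input change for SNHG14 (1.62), and with mitochondrial BS2 for SNHG32 (0.93). The calls of SNHG26, GAS5, SNHG4, SNHG29, SNHG8 and SNHG14 were each lost under at least 1 alternative. Over all genes the shares higher and lower were 7.63% and 8.94% with nuclear BS2. They were 5.74% and 2.77% with cytoplasmic and 6.16% and 3.4% with mitochondrial BS2. The spread of each single input was assumed to be that of the pull-downs and not measured, so a construct's effect and a deviation of that input cannot be told apart.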

How the results depend on the processing

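Of 136 member calls, 90 passed under every alternative run and 46 lost the call under at least 1. The sign turned for SNHG6 with nuclear BS2 against non-transfected cells, from -0.25 to 0.019, under CPM rescaled to a common total. Lower calls of nuclear against cytoplasmic BS2 went from 7 to 2 under the common total, 4 under median-of-ratios scaling and 2 under quantile normalization. The cause was not tested.

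After subtraction of the inputs, each a single library, counts were small. With cytoplasmic BS2 the 1 higher call became 0 with the deposited log2 values, no filter or no trend. Lower calls went from 0 to 1 under the 3 other scalings, a filter of 5 CPM and either replicate block. With nuclear BS2 the higher calls went from 4 to 7 under the common total. With mitochondrial BS2 lower calls went from 0 to 2 under the common total, median-of-ratios scaling, a filter of 5 CPM and the biological replicate block, to 3 under quantile normalization and to 1 under the replicate block by the number in brackets.

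Replicate numbers did not pair the samples: same-numbered libraries deviated from their group means with correlations of -0.167 to 0.161, over 0.1 in 3 of 21 pairs, and with the number in brackets -0.155 to 0.161, 3 of 19. The replicate block by the number in brackets took lower calls of pull-down against input from 11 to 6, and the higher call of SNHG31 did not pass under it (0.46). Inputs carry no biological replicate number, so the block by that number was not fitted for pull-down against input. In the fits with inputs subtracted it covered the pull-downs alone. The call of SNHG20 with cytoplasmic BS2 did not pass under either replicate block (-0.33 and -0.41), nor did those of SNHG19 with mitochondrial (-0.55 and -0.58) and nucleolar BS2 (-0.53 and -0.57). That of SNHG19 with cytoplasmic BS2 did not pass under the biological replicate block (-0.63).

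Leaving out single libraries gave 6 to 9 higher and 7 to 13 lower calls with cytoplasmic, 10 to 13 and 7 to 8 with nuclear, 6 to 7 and 9 to 11 with mitochondrial and 8 to 13 and 8 to 9 with nucleolar BS2. It gave 9 to 10 and 4 to 7 between nuclear and cytoplasmic, 2 to 3 and 8 to 12 between nucleolar and nuclear BS2, and 3 to 4 and 10 to 11 for pull-down against input. After subtraction of inputs it gave 0 to 1 and 0 to 1 with cytoplasmic, 2 to 5 and 4 to 6 with nuclear and 1 to 2 and 0 to 2 with mitochondrial BS2. SNHG19 and the other members of 1 to 5 CPM rest on few reads.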
